A study of Mus musculus with 12 samples.

Results

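The 10 genes described here are Nfe2l2, which encodes the regulator NRF2, 5 NRF2 target genes, 2 mitochondrial antioxidant genes and 2 peroxide enzymes. They were read in inguinal white fat (iWAT, under the skin of the groin) and beside it in brown fat (BAT, the heat-producing depot). They were chosen by name, with earlier results of these data known. All 10 were found among the 16738 genes of the white fat table and among the 15363 genes of the brown fat table. The white fat libraries came from C57BL/6 mice that ate a high-fat diet and lived at room temperature. They fall into 4 groups of 3 libraries: KO females, WT females, KO males and WT males, where KO mice lack NDUFS4, an accessory subunit of respiratory complex I, in adipocytes. The sources used here do not state the driver of the deletion, the age of the mice or the number of animals in a library, so a p-value covers only the variation among these libraries, which may be technical. The labels list no brown fat libraries, and the brown fat table is read as the authors' comparison only.

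NRF2, the protein of Nfe2l2, is a transcription factor that is held in the cytosol and broken down while its sensor KEAP1 is intact. Oxidants and electrophiles disable KEAP1, and NRF2 then enters the nucleus and binds antioxidant response elements beside the genes of quinone reduction, heme breakdown, glutathione synthesis and thioredoxin reduction. Superoxide leaking from the respiratory chain is handled inside mitochondria by a manganese superoxide dismutase and a peroxiredoxin, while catalase in peroxisomes and the lipid peroxidase GPX4 remove hydrogen peroxide and lipid peroxides.

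The promoter windows below are shown because NRF2 is known to act through a short element near its target genes, whose core letters TGACNNNGC were searched on both strands. RefSeq windows (build GRCm38.p6, 250 bases before to 50 after a transcript start) were at hand for 8 of the 10 genes, and none for Gclc or Hmox1. The core was found in windows of 3 genes, Nfe2l2, Gclm and Txnrd1, and 14.0% of all genes with such windows hold it. The Sod2 window is shown for its 4 copies of the GC box, GGGCGG on either strand, which 38.2% of all genes hold in such a window and which all 8 of these genes hold. Capitals mark both motifs, which do not overlap each other in these windows. The windows lie at chr2:75704614-75704913 (minus strand) for Nfe2l2, chr3:122245307-122245606 (plus strand) for Gclm, chr10:82858956-82859255 (plus strand, one of 3 Txnrd1 windows) for Txnrd1 and chr17:13007589-13007888 (plus strand) for Sod2.
Nfe2l2: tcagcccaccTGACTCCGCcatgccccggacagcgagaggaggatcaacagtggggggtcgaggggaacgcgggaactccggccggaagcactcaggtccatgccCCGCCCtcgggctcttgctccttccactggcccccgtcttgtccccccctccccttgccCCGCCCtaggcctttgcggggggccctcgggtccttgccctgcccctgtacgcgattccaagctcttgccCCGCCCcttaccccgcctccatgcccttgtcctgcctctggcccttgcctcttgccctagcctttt
Gclm: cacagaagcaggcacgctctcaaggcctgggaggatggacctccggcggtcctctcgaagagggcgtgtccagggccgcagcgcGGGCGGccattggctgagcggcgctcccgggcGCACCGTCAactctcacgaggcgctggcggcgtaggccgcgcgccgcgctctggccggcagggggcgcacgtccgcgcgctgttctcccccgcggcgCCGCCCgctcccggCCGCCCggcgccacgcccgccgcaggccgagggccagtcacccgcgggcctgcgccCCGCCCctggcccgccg
Txnrd1: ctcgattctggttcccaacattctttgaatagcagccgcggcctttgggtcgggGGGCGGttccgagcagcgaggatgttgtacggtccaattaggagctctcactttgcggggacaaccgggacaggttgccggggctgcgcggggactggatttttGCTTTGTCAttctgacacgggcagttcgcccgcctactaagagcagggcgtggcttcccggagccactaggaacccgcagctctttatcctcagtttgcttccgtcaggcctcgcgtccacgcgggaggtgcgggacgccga
Sod2: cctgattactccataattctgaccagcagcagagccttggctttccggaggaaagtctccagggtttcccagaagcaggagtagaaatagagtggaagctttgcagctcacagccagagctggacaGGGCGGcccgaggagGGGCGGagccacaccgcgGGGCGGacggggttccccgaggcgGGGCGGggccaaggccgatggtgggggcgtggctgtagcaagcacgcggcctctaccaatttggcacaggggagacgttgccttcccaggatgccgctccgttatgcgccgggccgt
The core reads TGACTCCGC in the Nfe2l2 window, where its first base is at position -240 from the start site. It lies on the other strand in the Gclm window (GCACCGTCA, from position -134) and in the Txnrd1 window (GCTTTGTCA, from position -92). The AP-1 site TGACTCA, the E-box CACGTG and the site of NRF1, another factor, were found in no window of the 8 genes. Of all genes with windows, 5.95% hold the AP-1 site, 8.09% the E-box and 1.07% the NRF1 site. A match is only a match of letters, and a window without one says nothing about elements farther away.

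The value read for each gene is the interaction of genotype and sex, which asks whether loss of NDUFS4 changed a gene by a different amount in females than in males. It is the KO effect of females less that of males, both on the log2 scale, with the order of the sexes read from the name of the authors' deposited table. A value above 0 can come from a higher level in KO females, a lower level in males lacking NDUFS4, or unequal WT groups, and these cannot be told apart here. Values of single libraries, and the way the 10 genes vary together across libraries, were not analysed here because the library columns carry no label that ties them to a sample. The depth behind each value is therefore unknown, and precision is given by the standard error (SE) of the authors' fit and the 95% interval made from it.

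None of the 10 genes passed an adjusted p of 0.05 in the limma test of the white fat table, where 4.75% of all genes did (1.06% above 0 and 3.69% below 0), or in that of brown fat, where 0.013% did. In white fat 5 of the 10 had an unadjusted p under 0.05, all of them above 0, and 24.5% of all genes reached that level, 11.9% above 0 and 12.6% below 0. These 5 were Gpx4, Sod2, Prdx3, Txnrd1 and Gclm. In brown fat it was 1 of 10, Gpx4, against 6.51% of all genes, 3.33% above 0 and 3.18% below 0. In each depot 8 of the 10 genes lay above 0, as did 55.9% of all genes in white fat and 51% in brown fat. In both depots at once 7 of the 10 lay above 0, beside 32.2% of the genes in both tables. The median interaction over the 10 genes was 0.58 in white fat and 0.16 in brown fat, beside medians over all genes of 0.13 and 0.0125. Taken relative to the white fat median, 2 of the 10 genes, Gpx4 and Sod2, had an unadjusted p under 0.05, while 23.7% of all genes did, and none had an adjusted p under 0.05, while 5.74% of all genes did. In brown fat none of the 10 had an unadjusted p under 0.05 on that scale, while 6.39% of all genes did.

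**Figure D1:**
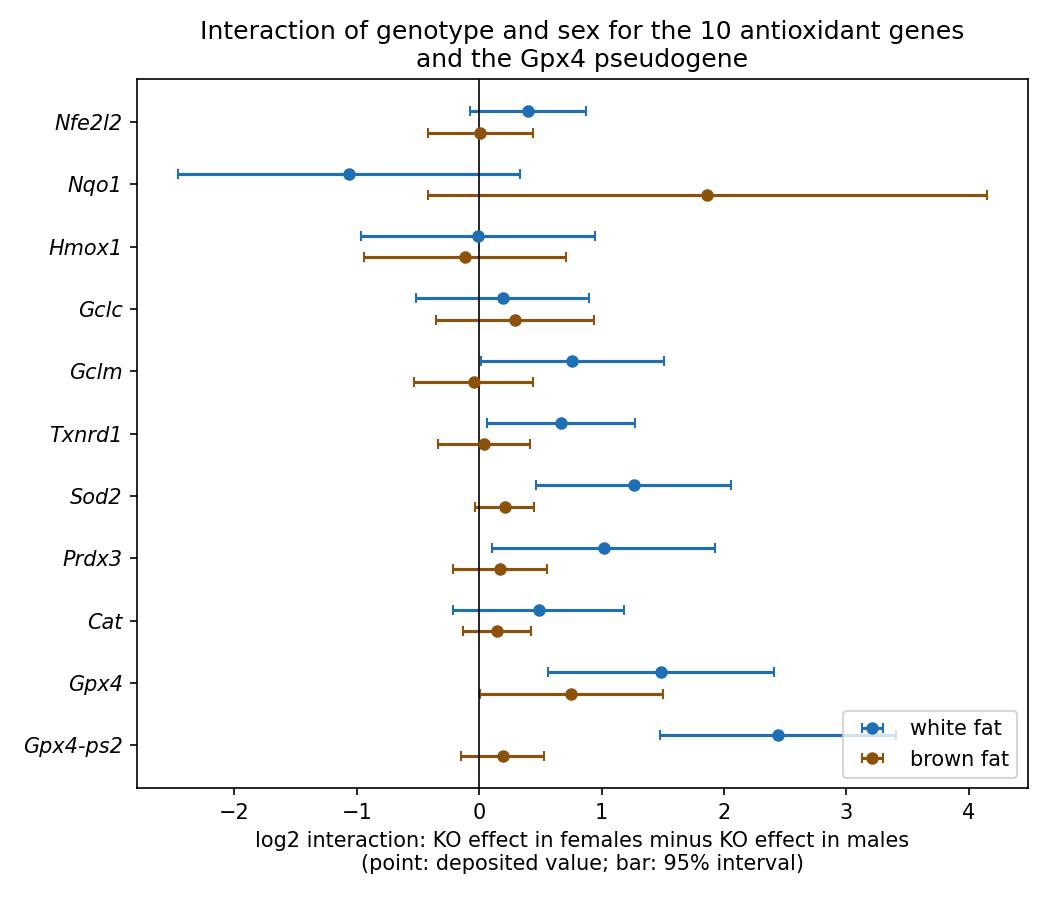
The interaction of each of the 10 genes and of the Gpx4 pseudogene Gpx4-ps2 (log2, horizontal axis) is drawn as a point with its 95% interval, white fat above brown fat. In white fat the intervals of Gclm, Txnrd1, Sod2, Prdx3, Gpx4 and Gpx4-ps2 lie wholly above 0, and in brown fat that of Gpx4 alone, which starts at 0.0042.

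Nfe2l2 itself, the regulator, lay slightly above 0 in white fat. The authors' deposited table gave Nfe2l2 (ENSMUSG00000015839.7, chromosome 2, 75505857 to 75534985, GRCm39) an interaction of 0.40 ± 0.22 (SE) in white fat with an adjusted p of 0.275, and 0.01 ± 0.21 in brown fat with an adjusted p of 0.995. Its 95% interval ran from -0.07 to 0.87 in white fat and from -0.42 to 0.44 in brown fat. Centred on the median the brown fat value was -0.0033, so its sign depends on the scaling.

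The 5 NRF2 target genes lay on both sides of 0 in white fat, with a median of 0.19. Txnrd1, the cytosolic thioredoxin reductase, and Gclm, the modifier subunit of glutamate-cysteine ligase, had unadjusted p under 0.05 in white fat, while Gclc, the catalytic subunit of the same ligase, and Hmox1, the heme oxygenase that cleaves heme to biliverdin, lay near 0. The authors' deposited table gave Txnrd1 (chromosome 10, 82669785 to 82733546) 0.67 ± 0.28 in white fat (unadjusted p = 0.0335, adjusted p = 0.166) and 0.04 ± 0.18 in brown fat (adjusted p = 0.985). A short gene on the same strand, Eid3, overlaps the Txnrd1 span by 1305 bases, and its own interaction in the authors' deposited table was 1.89 in white fat (adjusted p = 0.258) at a mean log2 expression of 0.27. The span of Gclm overlaps the antisense gene Gm17494, which had a mean log2 expression of -0.75 in white fat per the authors' deposited table, and whether the counting used strand is not stated. Gclm (chromosome 3, 122039206 to 122064381) was at 0.76 ± 0.35 in white fat (unadjusted p = 0.0473, adjusted p = 0.198) and at -0.05 ± 0.24 in brown fat (adjusted p = 0.985) per the authors' deposited table. For Gclc (chromosome 9, 77661817 to 77701767) the authors' deposited table gave 0.19 ± 0.33 in white fat (adjusted p = 0.747) and 0.29 ± 0.32 in brown fat (adjusted p = 0.926). Both subunits of the ligase are needed for its full activity in glutathione synthesis, and the difference between their interactions was not tested.

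Hmox1 (chromosome 8, 75820249 to 75827217) had -0.01 ± 0.44 in white fat (adjusted p = 0.989) and -0.11 ± 0.41 in brown fat (adjusted p = 0.980) per the authors' deposited table. Its 95% interval in white fat was -0.97 to 0.94. A KO to WT ratio in females from 0.511 to 1.92 times that in males was therefore not excluded. Macrophages, which carry much of the heme oxygenase of a tissue, were read from 7 marker genes, of which 5 lay below 0 and none passed in white fat (median -0.19, from -1.08 for Cd68 to 0.55 for Cd14). Nqo1, the quinone reductase often used as a readout of NRF2, was a low-abundance gene in these tables. Its mean log2 expression was 1.77 in white fat and 0.22 in brown fat. The depots come in separate tables, so these levels are not compared between them. The authors' deposited table gave Nqo1 (chromosome 8, 108114857 to 108129838) -1.06 ± 0.65 in white fat (adjusted p = 0.326) and 1.86 ± 1.12 in brown fat (adjusted p = 0.819), the widest SE of the 10 genes in both depots. Its intervals, -2.46 to 0.34 and -0.42 to 4.15, both include 0.

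Sod2, the manganese superoxide dismutase of the matrix, and Prdx3, the peroxiredoxin that clears hydrogen peroxide there, both lay above 0 in white fat, with a median of 1.14. The authors' deposited table gave Sod2 (ENSMUSG00000006818.6, chromosome 17, 13225733 to 13258950) 1.26 ± 0.37 in white fat, with an unadjusted p of 0.00448 and an adjusted p of 0.0628. This amounts to a KO to WT ratio 2.40 times as large in females as in males, with a 95% interval of 1.38 to 4.16. In brown fat Sod2 was at 0.21 ± 0.12 (adjusted p = 0.801) per the authors' deposited table. Prdx3 (chromosome 19, 60852489 to 60862994) was at 1.02 ± 0.42 in white fat (unadjusted p = 0.0310, adjusted p = 0.159) and at 0.17 ± 0.19 in brown fat (adjusted p = 0.926) per the authors' deposited table. Relative to the white fat median, the unadjusted p of Prdx3 was 0.0552, and that of Sod2 was 0.0089.

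Both peroxide enzymes lay above 0 in white fat, and the difference between their interactions was not tested. Cat, the peroxisomal catalase and the gene with the highest mean log2 value of the 10 in white fat (9.15, not per length), was at 0.48 ± 0.33 in white fat (adjusted p = 0.372) and at 0.15 ± 0.14 in brown fat (adjusted p = 0.899) per the authors' deposited table. Gpx4, the selenium-containing enzyme that reduces lipid peroxides in membranes and so guards against ferroptosis, had the largest interaction of the 10 in white fat. The authors' deposited table gave Gpx4 (ENSMUSG00000075706.12, chromosome 10, 79883000 to 79892273) 1.48 ± 0.43 in white fat (unadjusted p = 0.00396, adjusted p = 0.0600) and 0.75 ± 0.37 in brown fat (unadjusted p = 0.0488, adjusted p = 0.764). The white fat value is a ratio of 2.80, with a 95% interval of 1.48 to 5.30, and Gpx4 ranked 1105 of 16738 genes by p.

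Reads of Gpx4 cannot be assigned with certainty, because copies of it exist and one of them, a processed pseudogene, is nearly identical to it. Among all mouse transcripts of GENCODE M21, that of Gpx4-ps2 matched a Gpx4 transcript over 762 bases at 99.7% identity, and a second copy, AC122253.3, matched over 535 bases at 95.1% and was not analysed here because neither table has a row for it. None of the other 9 genes had a copy matching over at least 400 bases at 90% or more. Gpx4-ps2 (ENSMUSG00000110841.2, chromosome 10, 45751387 to 45752182) was counted as a gene of its own, and in the authors' deposited table it passed the test in white fat with 2.44 ± 0.45 (adjusted p = 0.0355), rank 33 of 16738 by p. In brown fat Gpx4-ps2 was at 0.19 ± 0.17 (adjusted p = 0.895) per the authors' deposited table. The mean log2 expression of Gpx4-ps2 was 6.42 in white fat and 7.79 in brown fat, and that of Gpx4 was 5.15 and 5.13. Levels are not compared between depots here either. The sources used here do not state how reads that match both the gene and a copy were counted, so the interaction of Gpx4 messages as a whole was not obtained. Gpx4-ps2 came from the search for copies and not from the list of 10, and was read after earlier results of these data were known.

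**Figure D2:**
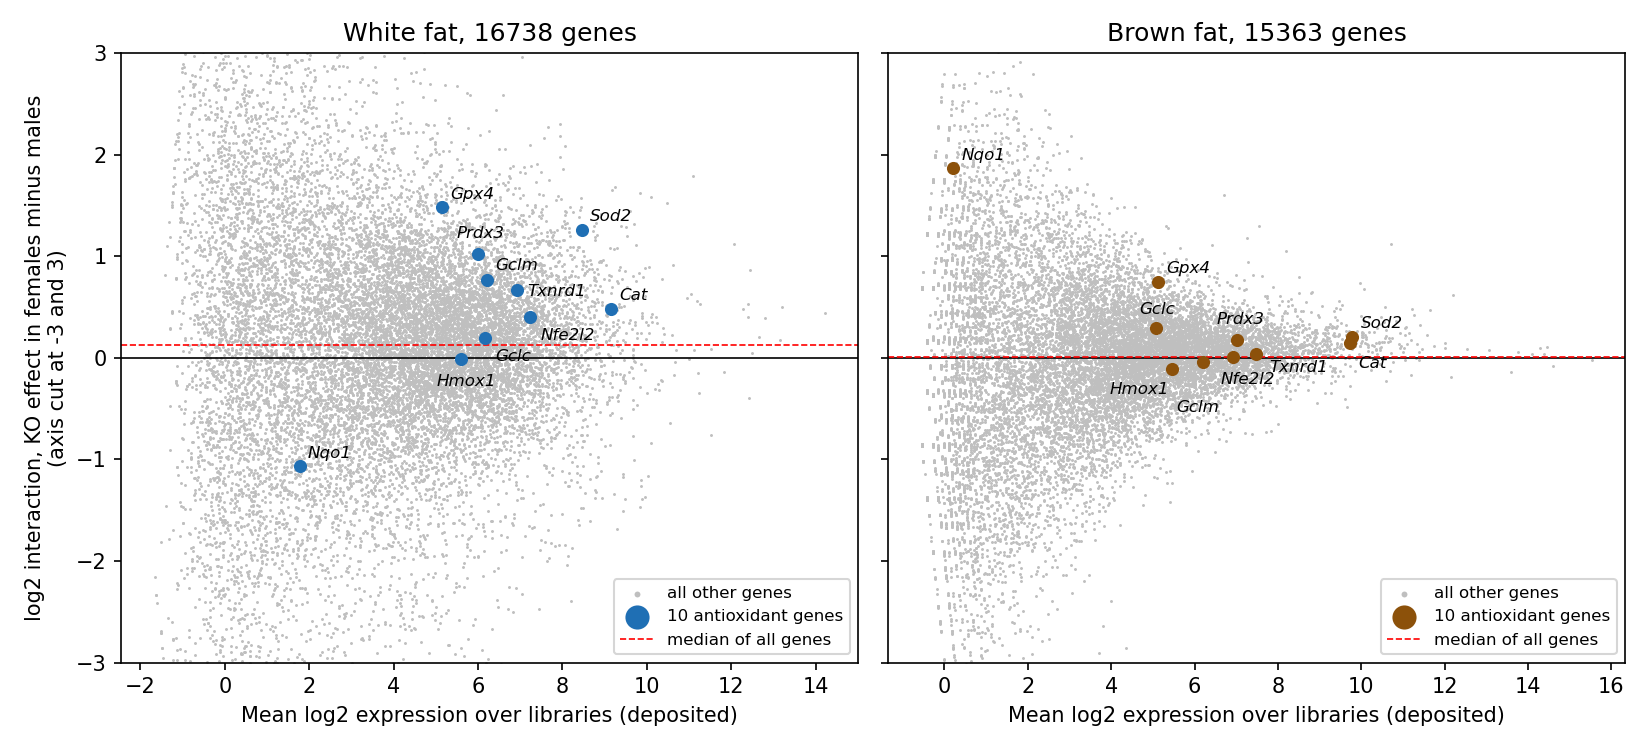
Each point is a gene, with the deposited mean log2 expression on the horizontal axis and the log2 interaction on the vertical axis, which is cut at -3 and 3; white fat is on the left. The 10 antioxidant genes lie within the cloud of all genes in both depots, with Gpx4 at 1.48 and Sod2 at 1.26 in its upper part in white fat and Nqo1 at its low-expression end.

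The error of the fit sets what could have passed. At its own SE, a gene had to reach a log2 size of 1.60 for Gpx4, 1.38 for Sod2, 1.58 for Prdx3, 1.05 for Txnrd1 and 1.30 for Gclm to meet the largest p that passed in white fat (0.00236). Nfe2l2, with the smallest SE in white fat, would have passed at 0.82, and Nqo1 only at 2.43. White fat SEs were larger than those of brown fat in 9 of the 10 genes, with a median ratio of 1.31. Over all genes of each table the order was the reverse, with a median SE of 0.506 in white fat and 0.588 in brown fat. The brown fat table also had a far stricter largest passing p of 2.32e-06, since only 2 of its genes passed.

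Whether the interaction differed between depots was tested gene by gene. It lay higher in white fat than in brown fat for 8 of the 10 genes, as it did for 58.4% of the 14502 genes in both tables, but none of the 10 passed an adjusted p of 0.05, which 0.248% of all shared genes did. The test divides the difference by the root of the summed squared SEs, with Welch-Satterthwaite degrees of freedom, is two-sided, takes the tables as independent and is adjusted over all shared genes by Benjamini-Hochberg. At an unadjusted p of 0.05 it was 2 of 10, beside 15.7% of all shared genes. For Sod2, values of the authors' deposited tables in white minus brown fat differed by 1.05 ± 0.39 (SE, 95% interval 0.23 to 1.88, unadjusted p = 0.0152, adjusted p = 0.201). Nqo1 went the other way, with a difference of -2.93 ± 1.30 (95% interval -5.54 to -0.32, unadjusted p = 0.0288, adjusted p = 0.258). Prdx3 (0.84 ± 0.46), Gclm (0.81 ± 0.42), Gpx4 (0.73 ± 0.56) and Txnrd1 (0.63 ± 0.34) had differences above 0 whose 95% intervals include 0. For Hmox1 (0.10 ± 0.60) and Gclc (-0.10 ± 0.46) the intervals reach from -1.12 to 1.33 and from -1.02 to 0.82, so moderate differences in either direction are not excluded. The difference of the pseudogene Gpx4-ps2 was 2.25 ± 0.48 (95% interval 1.25 to 3.26, adjusted p = 0.0519).

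**Figure D3:**
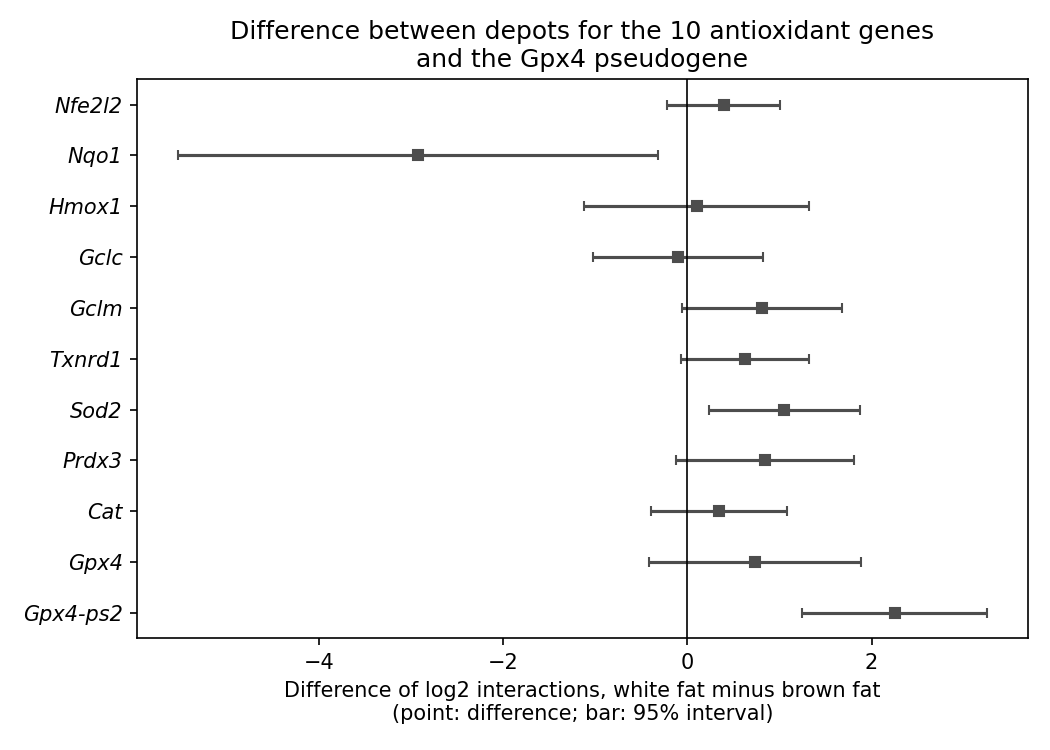
The difference of the log2 interactions, white fat minus brown fat, is drawn for each of the 10 genes and for Gpx4-ps2 as a point with its 95% interval. The interval lies wholly above 0 for Sod2 (0.23 to 1.88) and Gpx4-ps2 (1.25 to 3.26), wholly below 0 for Nqo1 (-5.54 to -0.32), and includes 0 for the other genes.

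Around these 10 genes stand 122 others of redox metabolism, in 10 lists that share no gene. In white fat 121 were measured, 91 lay above 0, and 6 (4.96%) passed the adjusted p, beside 4.75% of all genes. The shares are alike only in total. Of the 6, 4 lay above 0 and 2 below, while of all genes 1.06% passed above 0 and 3.69% below. At an unadjusted p of 0.05 it was 42 of 121 (34.7%, beside 24.5% of all genes). Their median was 0.47. Each count above 0 in these lists stands beside 55.9% of all genes in white fat and 51% in brown fat. In brown fat 116 were measured with a median of 0.09, 70 lay above 0, 0 passed the adjusted p in limma and 12 (10.3%) an unadjusted p of 0.05, beside 6.51% of all genes.

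Among the regulators of NRF2, 10 of 13 lay above 0 in white fat with a median of 0.37, and 1 gene passed in each direction. Nfe2l1, the relative of NRF2 known for driving proteasome genes, passed above 0 with 1.14 ± 0.23 (adjusted p = 0.0357) in white fat and was at 0.33 ± 0.17 (adjusted p = 0.778) in brown fat, in the authors' deposited tables. Bach2, a repressor that competes for the same kind of element and is best known from B cells, passed below 0 with -4.05 ± 0.87 (adjusted p = 0.0357) in white fat in the authors' deposited table. All 6 B cell markers read beside it lay below 0 in white fat, from -11.07 to -5.22, and 4 of them passed; their part in the Bach2 value was not tested. Cul3, the ubiquitin ligase scaffold that works with KEAP1, was at 0.44 ± 0.19 (adjusted p = 0.163) in white fat in the authors' deposited table. Keap1 itself, picked after its value was seen, was at -0.08 ± 0.24 (adjusted p = 0.853) there. In brown fat 5 of 13 lay above 0 with a median of -0.0040, and none passed.

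Of 22 other NRF2 target genes, 19 lay above 0 in white fat with a median of 0.62, and none passed. In limma 8 above 0 and 1 below 0 had an unadjusted p under 0.05, beside 11.9% and 12.6% of all genes. Cbr1, a carbonyl reductase, had the smallest p of the list, at 1.42 ± 0.41 (adjusted p = 0.0600) per the authors' deposited table. Next by p were a pair of pentose phosphate enzymes, which make NADPH for the glutathione and thioredoxin systems, with Pgd at 0.82 ± 0.27 (adjusted p = 0.0852) and G6pdx at 1.30 ± 0.43 (adjusted p = 0.0872) per the authors' deposited white fat table. The glutathione transferase Gstm1 was at 0.82 ± 0.27 (adjusted p = 0.0900) in that deposited table of the authors. Values larger than that of Cbr1 with larger p were those of Gsta4, another glutathione transferase, at 1.51 ± 0.79 (adjusted p = 0.252), and Tkt, transketolase, at 1.43 ± 0.51 (adjusted p = 0.111), both picked after their values were seen, per the authors' deposited table. Slc7a11, the cystine importer, stood apart below 0 at -5.23 ± 1.81 (adjusted p = 0.101, picked after its value was seen), with a mean log2 expression of 1.63, in the authors' deposited table. In brown fat 15 of 20 measured lay above 0 with a median of 0.29 and none passed. There 5 above 0 and 1 below 0 had an unadjusted p under 0.05 in limma, beside 3.33% and 3.18% of all genes. The 1 below 0 was Cbr1, at -0.63 ± 0.28 (unadjusted p = 0.0295, adjusted p = 0.737) per the authors' deposited table. That table also gave Taldo1, transaldolase of the pentose phosphate pathway, 0.49 ± 0.13 (adjusted p = 0.343) and Fth1, the ferritin heavy chain, 0.42 ± 0.12 (adjusted p = 0.374).

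Genes that use or recycle glutathione and thioredoxin gave no call. Of 17 glutathione enzymes 12 lay above 0 in white fat (median 0.51), led by Gpx3, the plasma glutathione peroxidase, at 2.96 ± 1.03 (adjusted p = 0.102) per the authors' deposited table. All 11 thioredoxin and peroxiredoxin genes lay above 0 in white fat (median 0.39, range 0.0178 to 1.67) and none passed. The mitochondrial pair Txnrd2 and Txn2, the reductase and thioredoxin that serve Prdx3, were at 1.67 ± 0.56 (adjusted p = 0.0918) and 1.26 ± 0.54 (adjusted p = 0.171) per the authors' deposited table for white fat. In brown fat 7 of 16 glutathione enzymes (median -0.04) and 8 of 11 thioredoxin and peroxiredoxin genes (median 0.12) lay above 0, and none passed.

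Genes of selenium, of heme and iron and of ferroptosis lay mostly above 0 in white fat, as did 55.9% of all genes. Of 12 selenium genes, which are selenoproteins and the factors that make them, 8 lay above 0 (median 0.39) and none passed, with Selenow, a small redox selenoprotein, at 0.75 ± 0.23 (adjusted p = 0.0671) and Sephs2, which makes the selenium donor, at 1.54 ± 0.59 (adjusted p = 0.129) per the authors' deposited table. Of 11 heme and iron genes 8 lay above 0 (median 0.57) and none passed, with Alas1, the first enzyme of heme synthesis, at 1.20 ± 0.34 (adjusted p = 0.0594) per the authors' deposited table. Of 8 ferroptosis genes 6 lay above 0 (median 0.49), and Aifm2, which regenerates reduced ubiquinone against lipid peroxidation independently of GPX4, passed above 0 with 1.60 ± 0.43 (adjusted p = 0.0491) per the authors' deposited table. Aifm2 did not pass once values were centred on the median over all genes of the table (adjusted p = 0.0589). In brown fat none of these 3 lists held a call, with 9 of 12, 3 of 11 and 5 of 7 measured genes above 0.

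Of 9 superoxide and mitochondrial redox genes 6 lay above 0 in white fat (median 0.63), and Coq7, an enzyme of ubiquinone synthesis, passed above 0 with 1.50 ± 0.40 (adjusted p = 0.0496) per the authors' deposited table, a call lost with the same centring (adjusted p = 0.0610). Ucp2, an uncoupling protein of the inner mitochondrial membrane, lay below 0 at -0.81 ± 0.33 (adjusted p = 0.157), and Ccs, the copper chaperone of SOD1, above 0 at 1.14 ± 0.47 (adjusted p = 0.159), per the authors' deposited table. The extracellular dismutase Sod3 was at 0.93 ± 0.42 (adjusted p = 0.190) in that deposited table of the authors, and the cytosolic Sod1 at -0.03 ± 0.27 (adjusted p = 0.958). All 10 peroxisome genes lay above 0 in white fat (median 0.91) and in brown fat (median 0.28). Abcd3, a carrier of acyl-CoA into peroxisomes, passed above 0 with 1.62 ± 0.43 (adjusted p = 0.0496) per the authors' deposited table for white fat, again lost with centring (adjusted p = 0.0596). The oxidases that produce superoxide went the other way: 7 of 8 lay below 0 in white fat with a median of -1.49. Ncf4, a cytosolic subunit of the phagocyte oxidase, passed below 0 with -3.06 ± 0.67 (adjusted p = 0.0357), while its partners Cyba at -1.75 ± 0.52 (adjusted p = 0.0659) and Ncf1 at -1.92 ± 0.62 (adjusted p = 0.0822) did not pass, in the authors' deposited table. The mean log2 expression of Ncf4 was 2.75, under the floor of 10 on the antilog that an alternative run applied. Which cells the RNA of these subunits came from is not known here, and fewer cells of a type and less RNA per cell cannot be told apart in whole tissue. All 7 T cell and all 6 B cell markers lay below 0 in white fat. Of the 7 macrophage markers 5 lay below 0 and 2 above, with a median of -0.19 and none passing. The part of these cell types in the oxidase values was not tested. In brown fat 6 of 9 superoxide and mitochondrial redox genes (median 0.09) and 2 of 7 oxidases (median -0.63) lay above 0, and none passed.

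**Figure D4:**
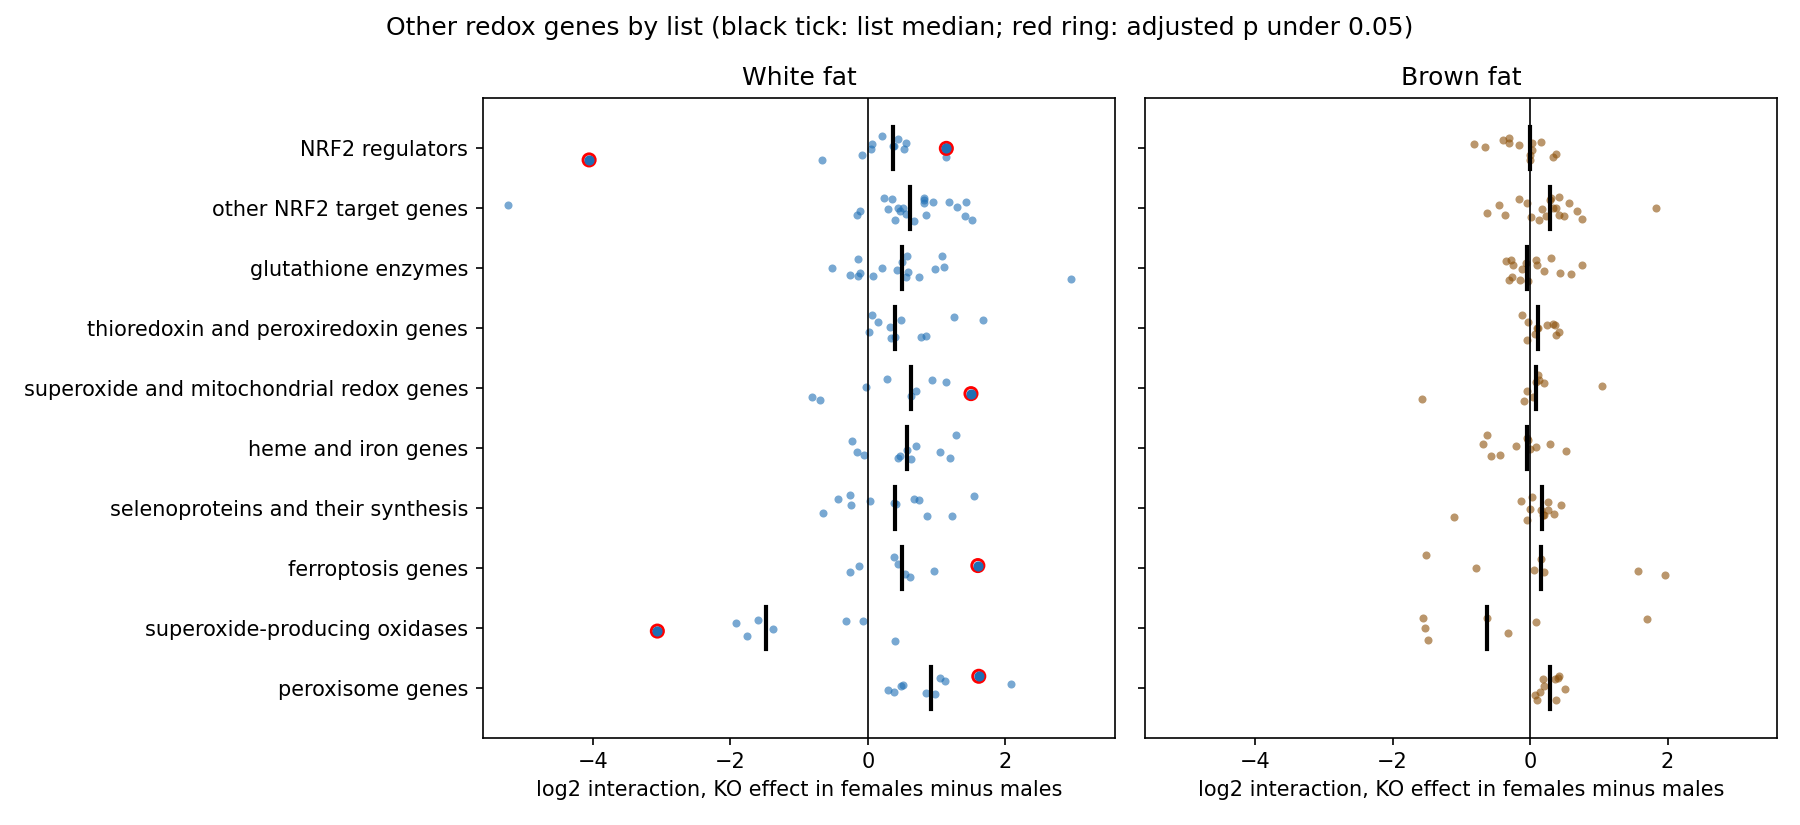
Each point is a gene of 1 of 10 redox lists, placed by its log2 interaction in white fat on the left and brown fat on the right, with a black tick at the list median and a red ring where the adjusted p is under 0.05. In white fat the median of 9 lists lies between 0.37 and 0.91 and that of the superoxide-producing oxidases at -1.49, and the 6 ringed genes are Nfe2l1, Bach2, Coq7, Aifm2, Ncf4 and Abcd3.

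The state of the tissue behind these values was read from the same tables. Ndufs4, the deleted gene, had an interaction of 0.89 ± 0.38 in white fat in the authors' deposited table (limma, unadjusted p = 0.0348, adjusted p = 0.169). In brown fat Ndufs4 was at -0.10 ± 0.14 (unadjusted p = 0.482, adjusted p = 0.946) per the authors' deposited table. These values do not give the size of its loss within either sex and so do not check the genotype labels. They do test whether Ndufs4 RNA changed by the same amount in both sexes. In white fat the limma test gave an unadjusted p under 0.05, but the adjusted p did not pass. In brown fat neither p was under 0.05. A higher level in KO females, a lower level in KO males and unequal WT groups cannot be told apart for Ndufs4 either. The part of any such difference in the values of the other genes was not tested. Adipocyte markers were abundant in white fat, with mean log2 expression of 8.91 to 12.49 and interactions of 0.05 to 0.94 that did not pass in any of 6 genes. Interactions of the 7 T cell markers ran from -9.15 to -5.16 in white fat with 6 passing, at mean log2 expression of 0.46 to 3.03. The 6 skeletal muscle markers ran from 1.84 to 6.36 in white fat and from -3.74 to -2.79 in brown fat, with none passing in limma and 1 and 2 at an unadjusted p of 0.05. The 5 brown or beige adipocyte markers had a median of 3.20 in white fat, which is the value of Kcnk3, the 1 that passed. No other had an unadjusted p under 0.05 in limma, with Cox8b at 3.17 (unadjusted p = 0.0846) and Ucp1 at 3.29 (unadjusted p = 0.573). Muscle and thermogenic fat are both rich in mitochondria, and the part of these markers in the values of Sod2, Prdx3 and the other genes above 0 was not tested.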

How the data were processed

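RNA of both depots went through a Zymo clean-up kit and a Bioanalyzer check, per the labels' protocols. The submitters' processing notes name featureCounts, limma and build GRCm39. Versions, aligner, annotation and strand setting are not stated in the sources used here. Each comparison table holds, per the file headers, limma's log2 contrast and mean log2 expression as the authors fitted them, with an offset that is not stated. Moderated t is a score in the deposited tables. The p-value and adjusted p-value are as deposited, and the adjusted one was checked to equal Benjamini-Hochberg adjustment over its table. In the 4 tables, 48 columns of library values match no label and were used in no step, so no limma fit was made here and gene values come from the authors' deposited table.

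The SE is the size of the log2 contrast over t, and t and p gave total degrees of freedom of 13.4 in white fat and 33.9 in brown fat, which set the 95% intervals. Gene positions are those of the deposited table, while promoter windows and GENCODE M21 transcripts belong to GRCm38 and lend no position to a gene. Copies were searched with BLAST 2.17.0. The difference between depots was computed from the deposited contrasts and their SEs. The figures were drawn with matplotlib 3.10.9, and tables were handled in pandas 2.3.3, scipy 1.17.1 and numpy 2.4.6 under Python 3.11.15.

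The 10 genes and the lists were chosen with earlier results of these data known. Besides the 10, up to 4 genes of each list with the smallest p in white fat and 2 in brown fat could be named, of which the text gives some, and others are marked as picked after their values were seen. Alternatives were a threshold of 0.10, a floor of 10 on the antilog of mean expression, coding genes only, centring on the median of all genes, a log2 size of at least 1 and, for the difference between depots, a normal distribution.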

Additional observations from a re-analysis of the deposited data

Results flagged for a closer look

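The values given here are the interactions that passed an adjusted p of 0.05 in limma in the authors' deposited table for white fat. Each compares the KO effect of females with that of males, not the levels of the sexes. Gpx4-ps2, the processed copy of Gpx4, had 2.44 ± 0.45. Nfe2l1 had 1.14 ± 0.23 and Bach2 -4.05 ± 0.87 among the regulators of NRF2. Ncf4 of the phagocyte oxidase had -3.06 ± 0.67, at a mean log2 expression of 2.75 that did not pass the expression filter. Coq7 had 1.50 ± 0.40, Aifm2 1.60 ± 0.43 and Abcd3 1.62 ± 0.43, and these 3 did not pass once centred on the median. Samples far from their group were not looked for, since no library value could be tied to a group.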

How the results depend on the processing

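None of the 10 genes passed in either depot or in the difference between depots under any alternative run, except at a threshold of 0.10, where 2 (Gpx4 and Sod2) passed in white fat. That threshold gave 2027 genes in white fat in place of 795. Centring moved the share above 0 among all white fat calls to 11.2%, against 22.3% without it. A floor of 10 on the antilog of mean expression moved it to 33.8%, and a threshold of 0.10 to 38.5%. For the difference between depots, centring gave 58 genes (17.2% above 0) and a normal distribution 341 (48.4% above 0), in place of 36 (36.1% above 0). Centring turned the sign of 2 values near 0: Nfe2l2 in brown fat became -0.0033 and the difference between depots of Hmox1 became -0.0150. Over the alternatives, 123 of the other values of the 10 genes kept their sign and their side of the threshold. The cause of these shifts was not tested. Nqo1, at a mean log2 expression of 1.77 in white fat, did not pass the expression filter in either depot. No paired analysis was possible because the library columns carry no label, and leaving out replicates or changing the pseudocount was not run for the same reason. The number of libraries and the unknown depth limit the precision.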
